A study of Mus musculus with 13 samples.

Results

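The 37 genes described here encode receptor subunits for glutamate and GABA and were picked by mouse gene symbol from the 49315 genes counted in each RNA-Seq library of the midbrain. They comprise 4 AMPA receptor subunits, 5 kainate receptor subunits, 7 NMDA receptor subunits, 1 delta receptor subunit, 6 metabotropic glutamate receptors, 12 GABA-A receptor subunits and 2 GABA-B receptor subunits, and all 37 passed the filter on low counts, as did 19360 genes in all. Total RNA was sequenced from the midbrains of 13 male mice aged 8 to 12 weeks. All mice carried floxed Ripk3 alleles (Ripk3fl/fl) and all received tamoxifen (60 mg/kg, 5 daily doses), so the controls shared both. Aldh1l1Cre+ mice express an inducible recombinase from the promoter of the astrocyte gene Aldh1l1 and lose Ripk3, a kinase of inflammatory and cell death signalling, in astrocytes only, whereas their Aldh1l1Cre- littermates keep it. The mice were given MPTP (20 mg/kg, 5 daily doses) or Saline, and tissue was taken 3 days after the last dose. MPTP is a toxin selective for dopaminergic neurons, and MPP+ is its toxic metabolite. Each group held 3 mice except Cre+ MPTP, which held 4, and each library came from 1 numbered mouse.

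Glutamate opens cation channels of the AMPA, kainate and NMDA classes, which carry fast excitation, and also acts on metabotropic receptors coupled to G proteins. GABA opens the chloride channels of the GABA-A class, whose subunit makeup sets where on the neuron the channel sits and how it responds to drugs, and acts more slowly through the GABA-B receptor. In the midbrain these receptors set the firing of dopaminergic neurons, which receive strong GABA input from the striatum and from neighbouring neurons and glutamate input from the subthalamic nucleus and brainstem, and several of the metabotropic subunits are also made by glia.

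Libraries held 11489150 to 29397278 counts assigned to genes, with a median of 24907639. Cre- MPTP replicate 1 had the lowest total, the others held at least 17713289, and it stood apart from the other 12 libraries at many genes: 33.8% of the genes tested were higher there than in every other library and 41.7% were lower than in every other library. Fold changes and levels of several subunits that it moved are given with and without it. Cre+ MPTP replicate 4 held 5486 CPM in summed muscle markers, against 7.59 to 123 CPM in the other 12 libraries. Summed pituitary markers were 605 CPM in Cre+ Saline replicate 1 and 445 CPM in Cre+ Saline replicate 3, against 5.78 to 81.9 CPM elsewhere. Summed choroid plexus markers were 68.0 CPM in Cre+ MPTP replicate 1, against 8.25 to 17.1 CPM elsewhere. The part of such tissue in the subunit levels, also between genotypes under Saline, was not tested. Ripk3 itself had 4 to 11 counts in Cre- Saline, 6 to 10 in Cre+ Saline, 6 to 40 in Cre- MPTP and 4 to 19 in Cre+ MPTP libraries, too few to check the genotype of single mice. Th, the enzyme that marks dopaminergic neurons, was present at 31.9 to 53.6 CPM (counts scaled to library size) in every library, and none of 10 dopaminergic marker genes was called with MPTP in either genotype by edgeR's quasi-likelihood test. In these bulk samples, fewer cells of a type and less RNA per cell cannot be told apart.

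Upstream sequence was available from RefSeq (GRCm38.p6) for 27 of the 37 genes, taken as the 250 bases before the annotated start. The letters GGGCGG, the core of a GC box to which Sp family factors bind, were searched on both strands and occurred in 16 of the 27 (59.3%), against 32.9% of 27025 promoters of the same length. TATAAA occurred in 3 of the 27 (11.1%, against 13% of all promoters) and TGACGTCA, the full cAMP response element, in none of the 27 (1.62% of all promoters). The median GC content was 62.8% in the subunit promoters and 52.0% in all promoters. The upstream bases are given for Grm3, the single subunit that passed the test between genotypes, for Grin2c, which had the opposite sign in the same comparison, and for Gabra6, which was high in 2 libraries. Capitals mark GGGCGG or its reverse complement.
Grm3, chr5:9725353-9725602, minus strand: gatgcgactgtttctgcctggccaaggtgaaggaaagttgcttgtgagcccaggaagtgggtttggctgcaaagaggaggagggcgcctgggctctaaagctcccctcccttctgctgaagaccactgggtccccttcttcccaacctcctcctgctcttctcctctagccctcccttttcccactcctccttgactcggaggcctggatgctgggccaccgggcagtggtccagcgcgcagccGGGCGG
Grin2c, chr11:115267244-115267493, minus strand: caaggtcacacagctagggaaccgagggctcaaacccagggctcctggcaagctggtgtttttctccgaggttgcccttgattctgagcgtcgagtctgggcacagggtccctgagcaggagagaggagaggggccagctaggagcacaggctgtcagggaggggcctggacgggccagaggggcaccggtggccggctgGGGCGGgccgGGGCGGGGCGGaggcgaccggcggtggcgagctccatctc
Gabra6, chr11:42321073-42321322, minus strand: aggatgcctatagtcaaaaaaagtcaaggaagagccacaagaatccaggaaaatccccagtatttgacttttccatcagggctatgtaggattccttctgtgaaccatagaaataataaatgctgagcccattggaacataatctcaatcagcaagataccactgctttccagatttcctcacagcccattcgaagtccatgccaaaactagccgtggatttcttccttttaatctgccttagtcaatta
The Grm3 window held 1 such match at its downstream end, the Grin2c window 3, of which the last pair shares a base, and the Gabra6 window 0. The GC content was 62.4%, 68.8% and 40.8%, respectively. These matches describe letters and were not tested as binding sites.

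To compare subunits with each other, CPM were divided by the exon length of each gene in kb. Gabbr1, the subunit of the GABA-B receptor that binds GABA, had the highest level at a mean of 114 CPM per kb over the 13 libraries. Its obligate partner Gabbr2, which couples the receptor to G proteins, stood at 34.3 CPM per kb and below Gabbr1 in 13 of 13 libraries. The ratio of Gabbr1 to Gabbr2 per kb was 3.51 ± 0.551 in Cre- Saline, 3.38 ± 0.0788 in Cre+ Saline and 3.40 ± 0.646 in Cre- MPTP (SD, n = 3 each), while Cre+ MPTP mice had 3.12 ± 0.158 (SD, n = 4), so the groups overlapped. In Cre- MPTP without replicate 1 the mean ratio was 3.03. Gabbr1 had 834, 892 and 899.5 CPM in Cre- Saline, 865, 957 and 900.2 CPM in Cre+ Saline, 1240.7 CPM in Cre- MPTP replicate 1 with 748 and 801 CPM in the other Cre- MPTP mice, and 866, 818, 879 and 806 CPM in Cre+ MPTP mice. Only Cre- MPTP replicate 1 lay outside the range of the rest on the high side.

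Among AMPA receptor subunits, Gria1 led at 46.0 CPM per kb. Gria4 (24.9 CPM per kb) and Gria2 (24.0 CPM per kb), the subunit whose edited form keeps calcium out of the channel, could not be ordered, since Gria4 was above Gria2 in 7 of 13 libraries, and Gria3 was lowest at 11.2 CPM per kb in 13 of 13 libraries. Gria1 had 276, 270 and 296 CPM in Cre- Saline, 290, 297 and 306 CPM in Cre+ Saline, 98.0, 258 and 282 CPM in Cre- MPTP, and 318, 260, 371 and 294 CPM in Cre+ MPTP. Cre- MPTP replicate 1 was far below the others, which spanned 258 to 371 CPM. The ratio of Gria1 to Gria2 per kb ranged from 1.45 to 2.34 over the other 12 libraries and was 1.88 in Cre- MPTP replicate 1.

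Among kainate receptor subunits, Grik5, which forms channels only with a partner subunit, was highest (28.6 CPM per kb in the mean, and 23.1 without Cre- MPTP replicate 1) and above Grik2 (8.32 CPM per kb) in 13 of 13 libraries. Grik2 was above Grik3 (6.99 CPM per kb) in 10 of 13 libraries, and Grik3 above Grik4 (5.79 CPM per kb) in 12 of 13. Grik1 was lowest at 3.04 CPM per kb. Grik5 had 150, 126 and 144 CPM in Cre- Saline, 108, 147 and 110 CPM in Cre+ Saline, 489, 106 and 101 CPM in Cre- MPTP, and 116, 105, 124 and 93.3 CPM in Cre+ MPTP.

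Among NMDA receptor subunits, the obligatory subunit Grin1 was highest at 42.1 CPM per kb, followed by Grin2c (13.1 CPM per kb), Grin2d (10.6 CPM per kb), Grin3a (5.22 CPM per kb), Grin2a (3.68 CPM per kb), Grin2b (3.32 CPM per kb) and Grin3b (0.791 CPM per kb). Grin2c was above Grin2d in 10 of 13 libraries and Grin2a above Grin2b in 11 of 13, so neither order was kept in every mouse. Cre- MPTP replicate 1 had 126 CPM per kb of Grin1, 47.2 CPM per kb of Grin2c and 30.8 CPM per kb of Grin2d. Without it the means were 35.1 CPM per kb for Grin1, 10.2 CPM per kb for Grin2c and 8.96 CPM per kb for Grin2d. The ratio of Grin2a to Grin2b, the glutamate-binding subunits that dominate in the adult and the young forebrain, was 0.957 ± 0.0934 in Cre- Saline, 1.16 ± 0.177 in Cre+ Saline and 1.28 ± 0.255 in Cre- MPTP (SD, n = 3 each), while Cre+ MPTP mice had 1.16 ± 0.112 (SD, n = 4). It was 1.57 in Cre- MPTP replicate 1 and 0.860 to 1.36 in the other 12 libraries, and Cre- MPTP without that replicate had a mean of 1.13.

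The delta subunit Grid1, which binds cerebellins across the synapse, stood at 9.89 CPM per kb. It had 57.7, 61.2 and 61.3 CPM in Cre- Saline, 54.0, 64.6 and 63.7 CPM in Cre+ Saline, 59.0, 63.0 and 63.5 CPM in Cre- MPTP and 62.3, 61.1, 63.3 and 49.1 CPM in Cre+ MPTP, with all groups overlapping. Among metabotropic receptors, Grm3 (12.1 CPM per kb), Grm5 (10.6 CPM per kb), Grm4 (10.1 CPM per kb) and Grm7 (8.74 CPM per kb) followed closely, each above the next in 10 of 13 libraries. Grm2 (4.30 CPM per kb) and Grm8 (2.25 CPM per kb) were lower. Grm2 and Grm3 lower cyclic AMP as group II receptors, Grm4, Grm7 and Grm8 do so as group III receptors, and Grm5 acts through calcium release.

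Among GABA-A receptor subunits, the alpha subunit Gabra3 (22.4 CPM per kb) and the beta subunit Gabrb2 (19.4 CPM per kb) led, with Gabra3 above in 12 of 13 libraries. Gabra5 (14.3 CPM per kb), Gabrb1 (8.07 CPM per kb), Gabra2 (7.46 CPM per kb) and Gabrg1 (5.51 CPM per kb) came next, with Gabrb1 above Gabra2 in 9 of 13 libraries. Gabrq, the theta subunit, Gabra4, Gabrd, Gabrg3, Gabre, the epsilon subunit, and Gabra6 lay at or below 3.82 CPM per kb. Gabra3 had 95.0, 86.4 and 73.8 CPM in Cre- Saline, 96.8, 94.9 and 97.9 CPM in Cre+ Saline, 28.4, 94.0 and 97.6 CPM in Cre- MPTP and 97.2, 92.5, 98.3 and 88.9 CPM in Cre+ MPTP. Apart from Cre- MPTP replicate 1, Cre- Saline replicate 3 was the lowest library.

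**Figure D1:**
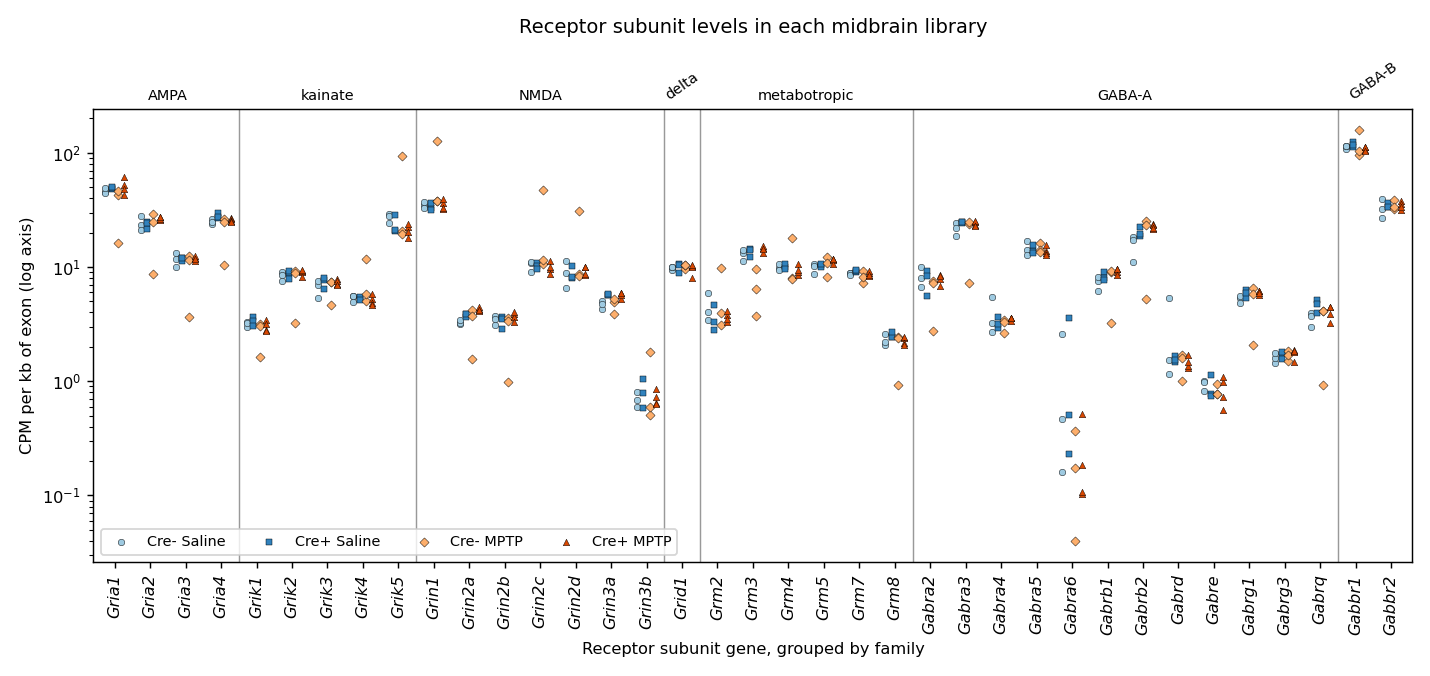
Level of each of the 37 receptor subunit genes in CPM per kb of exon (log axis), 1 point per library, grouped by receptor family and marked by group. Gabbr1 lies highest at a mean of 114 CPM per kb, Gabra6 spreads most between libraries, and the stray Cre- MPTP point in many columns is replicate 1.

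The comparison of Cre+ with Cre- mice under MPTP asked whether the loss of astrocytic Ripk3 went with other receptor levels after the toxin. 1 of 37 subunits was called, at an adjusted p under 0.05 by edgeR's quasi-likelihood test over all genes tested. This was Grm3, and it was higher in Cre+ mice. Over all genes tested, 1.54% were called in this comparison and 0.517% were called higher. An unadjusted p under 0.05 was reached by 6 subunits (19% of all genes). The median log2 fold change of the 37 was 0.19, beside 0.03 over all genes, and it was 0.01 without Cre- MPTP replicate 1.

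Grm3 (chromosome 5, 9485541 to 9725170 of GRCm38, minus strand) encodes a group II metabotropic glutamate receptor found on neurons and abundantly on astrocytes. It had 45.1, 40.1, 46.6 and 44.0 CPM in Cre+ MPTP mice and 11.3, 19.8 and 29.3 CPM in Cre- MPTP mice. Under Saline it had 34.3, 40.6 and 43.3 CPM in Cre- mice and 43.9, 37.3 and 42.8 CPM in Cre+ mice. Every Cre- MPTP mouse thus lay below every other mouse of the study, and the remaining 3 groups overlapped with each other.

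Under MPTP, Grm3 differed between the genotypes by a log2 fold change of 1.11 (SE 0.244, edgeR quasi-likelihood adjusted p = 0.0428). Without Cre- MPTP replicate 1, which had the lowest value, it was 0.83 (SE 0.146, edgeR quasi-likelihood adjusted p = 0.00662), and with a trend on GC content removed it was 1.01 (SE 0.176, edgeR quasi-likelihood adjusted p = 0.0104, with 2.39% of all genes called). With MPTP in Cre- mice, which share the Cre- MPTP libraries with that contrast, it was -0.96 (SE 0.255, edgeR quasi-likelihood adjusted p = 0.0723), and without Cre- MPTP replicate 1 it was -0.67 (SE 0.152, edgeR quasi-likelihood adjusted p = 0.0134). It was also called there without Cre- MPTP replicate 3, at -1.33 (SE 0.222, edgeR quasi-likelihood adjusted p = 0.00840, with 3.07% of all genes called). In Cre+ mice the change with MPTP was 0.09 (SE 0.236), and between genotypes under Saline it was 0.07 (SE 0.252), neither called. The test of the difference itself, the interaction of genotype and MPTP, gave 1.04 (SE 0.348, edgeR quasi-likelihood adjusted p = 0.541), and 2 genes of 19360 (0.0103%) were called in it, neither of them a subunit, while 1 subunit had an unadjusted p under 0.05, beside 5.76% of all genes. Without Cre- MPTP replicate 1 the interaction was 0.76 (SE 0.195, edgeR quasi-likelihood adjusted p = 0.0929). DESeq2 called no subunit in the interaction (1.19% of all genes) and limma voom called Grm3 (adjusted p = 0.0120, with 3.56% of all genes called).

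The call for Grm3 between genotypes sat close to the threshold. Leaving out single libraries kept it in 3 of 13 cases, those without Cre- MPTP replicate 1, 2 or 3, and gave adjusted p-values from 0.0625 to 0.137 in the other cases (edgeR's quasi-likelihood test), with log2 fold changes of 0.83 to 1.5 throughout. It was also lost with edgeR on the 2 groups alone (1.11, adjusted p = 0.36) and held with DESeq2 (1.09, adjusted p = 0.000576, with 4.44% of all genes called) and limma voom (0.82, adjusted p = 0.000455, with 6.32% called). The direction was the same in all 25 alternatives.

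Levels of glial marker genes in the same groups stood beside those of Grm3 as follows. Between Cre+ and Cre- mice under MPTP, 1 of 8 oligodendrocyte markers (Ugt8a) and 2 of 8 microglia markers (P2ry12 and Trem2) were called higher by edgeR's quasi-likelihood test, 1 of 8 astrocyte markers (Gfap) was called lower, and 0 of 5 oligodendrocyte precursor markers were called. The summed level of 8 oligodendrocyte markers was 9487 to 12190 CPM in Cre- MPTP, 11525 to 14935 CPM in Cre+ MPTP, 12903 to 17845 CPM in Cre- Saline and 15583 to 17475 CPM in Cre+ Saline, so that the MPTP groups overlapped, and 3 of the 8 were called lower with MPTP in Cre- mice. The summed level of 8 astrocyte markers was 3803 to 5073 CPM in Cre- MPTP and 2789 to 3403 CPM over the other groups, with 2 of 8 (Gfap and Aldh1l1) called higher with MPTP in Cre- mice. The summed level of 8 microglia markers overlapped between the groups, at 198 to 361 CPM in Cre- MPTP and 255 to 364 CPM in Cre+ MPTP. With MPTP in Cre- mice 2 of the 8 were called lower, and 1 was called higher in the interaction. The summed level of 5 oligodendrocyte precursor markers was 87.5 to 151 CPM in Cre- MPTP and 141 to 163 CPM in Cre+ MPTP. It was 120 to 195 CPM in Cre- Saline and 158 to 178 CPM in Cre+ Saline. With MPTP in Cre- mice 1 of these 5 was called lower. The part of these markers in the result for Grm3 was not tested.

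Other subunits had large fold changes in this comparison that rested on 1 library. Grin2c had 238, 53.4 and 57.5 CPM in Cre- MPTP and 56.8, 48.6, 50.8 and 43.4 CPM in Cre+ MPTP. In Saline mice it had 54.2, 45.4 and 55.4 CPM (Cre-) and 54.3, 51.0 and 48.5 CPM (Cre+). All libraries but Cre- MPTP replicate 1 thus overlapped.

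Grin1 (chromosome 2, 25291181 to 25319187, minus strand) had 1223, 366 and 365 CPM in Cre- MPTP and 356, 315, 380 and 317 CPM in Cre+ MPTP. In Saline mice it had 339, 319 and 360 CPM (Cre-) and 321, 349 and 304 CPM (Cre+). Here too only Cre- MPTP replicate 1 stood away. Under MPTP the genotypes differed by a log2 fold change of -1.21 (SE 0.405, edgeR quasi-likelihood adjusted p = 0.184) for Grin2c and -0.93 (SE 0.338, edgeR quasi-likelihood adjusted p = 0.20) for Grin1, and without that library by -0.16 (SE 0.110) and -0.10 (SE 0.0920). Grik5 went from -1.08 (SE 0.434) to 0.07 (SE 0.136) in the same way. Without Cre- MPTP replicate 2 instead, Grik4, Grik5, Grin1 and Grin2c were called lower in Cre+ mice along with Grm3 higher, 5 subunits in all, when 9.51% of all genes were called.

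**Figure D2:**
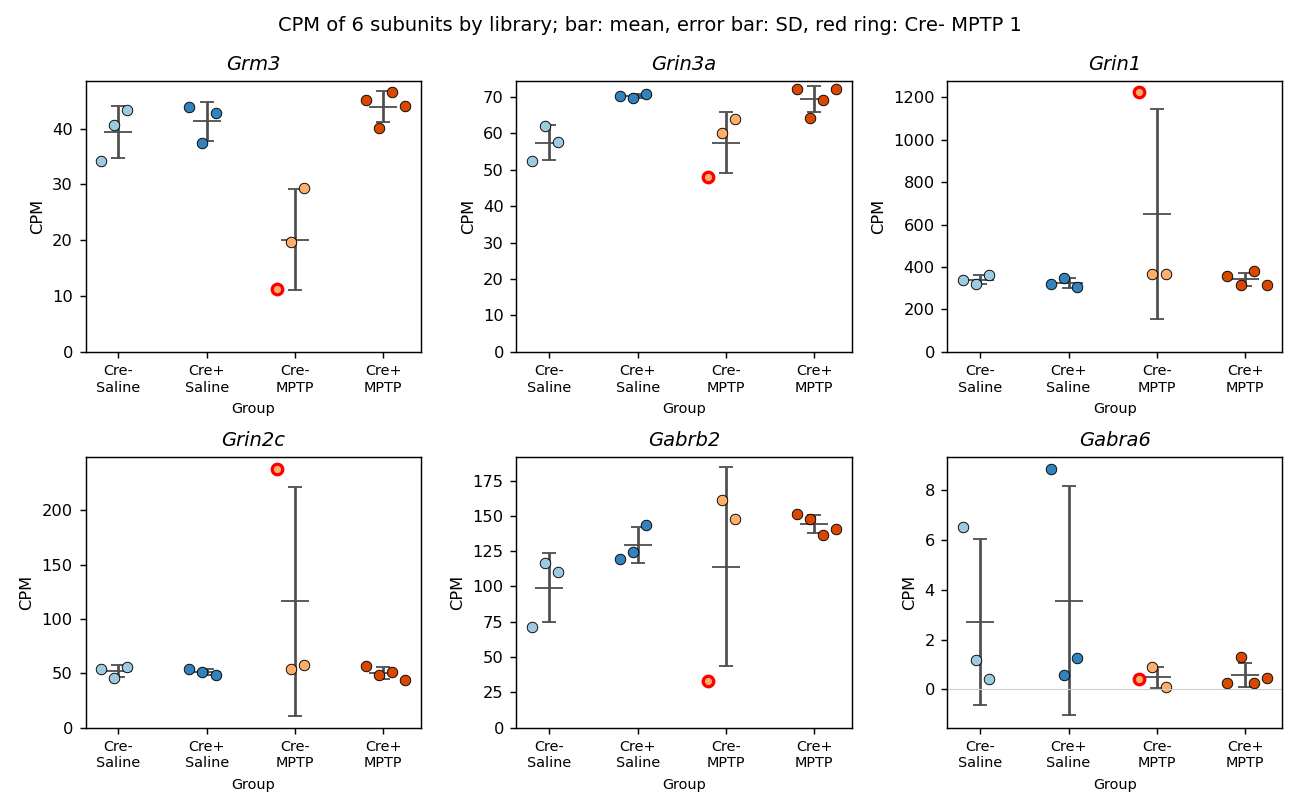
CPM of 6 subunits in each library by group, with the mean (bar) and SD (error bar) and a red ring around Cre- MPTP replicate 1. Grm3 lies at 11.3 to 29.3 CPM in Cre- MPTP and at 34.3 CPM or above elsewhere, Grin1 and Grin2c are set by the ringed library, and Gabra6 is high in 1 Cre- Saline and 1 Cre+ Saline mouse.

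By family, the AMPA receptor subunits had log2 fold changes of 0.32 to 0.55 between Cre+ MPTP and Cre- MPTP, the kainate receptor subunits -1.08 to 0.33, the NMDA receptor subunits -1.21 to 0.48 and the GABA-A receptor subunits -0.08 to 0.42. None in these families was called, and the median SE over the 37 subunits was 0.27. Without Cre- MPTP replicate 1 the median SE was 0.110, 36 of the 37 lay within 0.5 of zero on the log2 scale, 35 within 0.25, and Grm3 was called, when 3.18% of 19311 genes were called. The exceptions to 0.25 were Grm3 (0.83) and Grin3b (0.38, SE 0.260). Grin3b is a low-count subunit, at 1.66 to 3.46 CPM in the libraries of that fit and 5.96 CPM in the library left out. Its exons overlap those of the more abundant Tmem259 on the opposite strand. Between Cre+ MPTP and Cre- MPTP, 2 subunits, Grm3 and Grin3a, had groups that did not overlap, both higher in Cre+ mice, beside 11.3% of all genes.

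**Figure D3:**
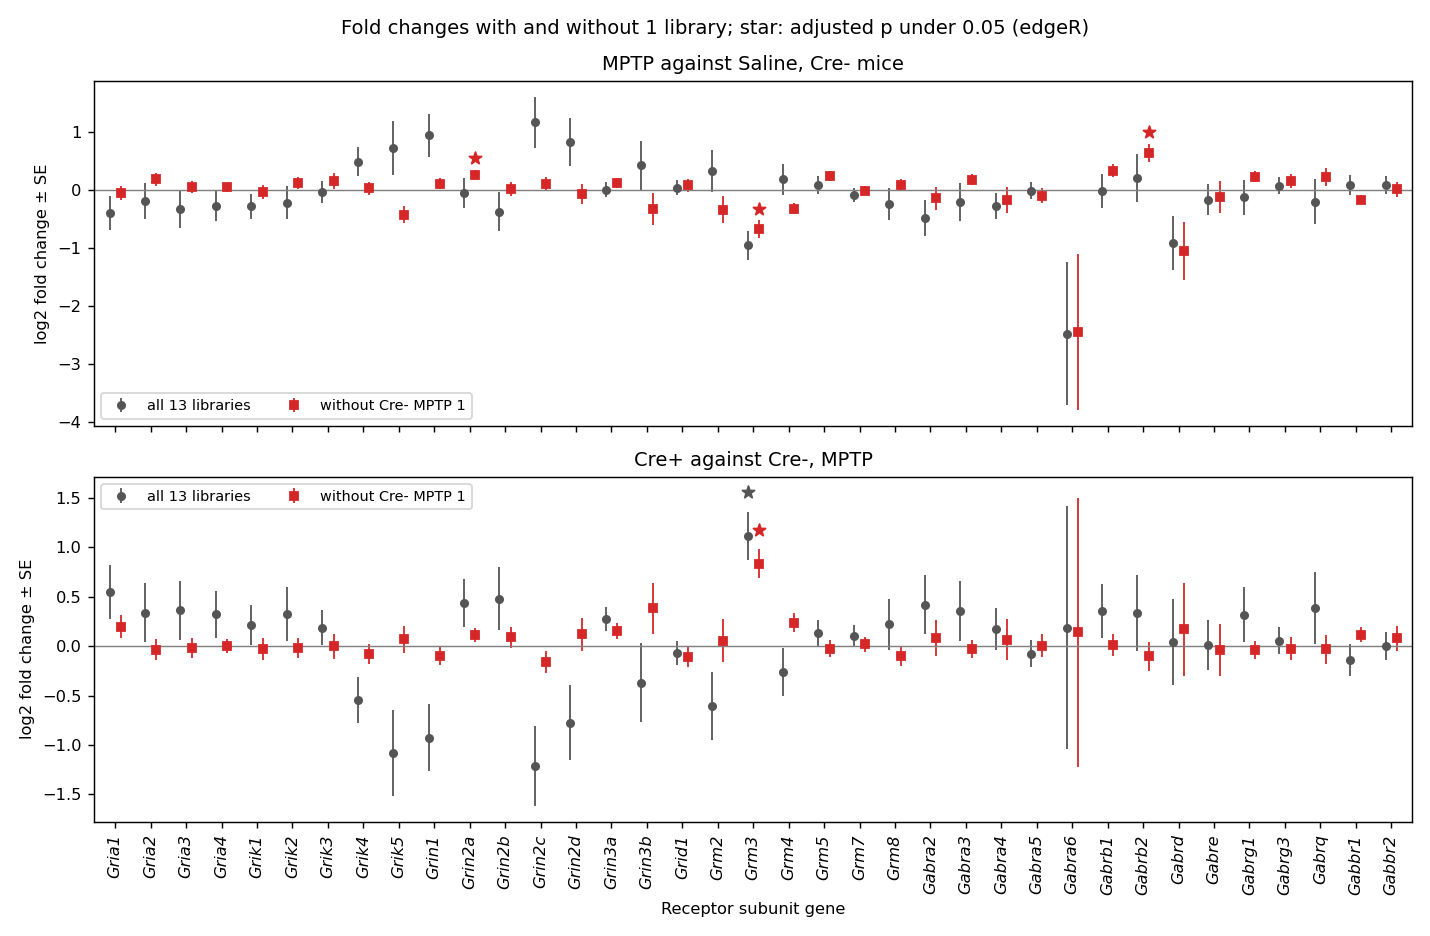
Log2 fold change ± SE of each of the 37 subunits with MPTP in Cre- mice (upper panel) and between Cre+ and Cre- mice under MPTP (lower panel), with all 13 libraries (grey circles) and without Cre- MPTP replicate 1 (red squares), with stars for an adjusted p under 0.05 by edgeR's quasi-likelihood test. Grm3 is starred in the lower panel in both fits, at 1.11 and 0.83, while Grin1, Grin2c and Grik5 move to near zero there without the library.

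In Cre- MPTP replicate 1 the levels of the subunits varied with their GC content, taken from the longest annotated transcript of each gene. Relative to the mean of the other 2 Cre- MPTP libraries, log2 ratios of the 37 subunits ran from -2.20 (Gabrb2) to 2.23 (Grik5). In 9 subunits this library was above the other 12 libraries (Grik4, Grik5, Grin1, Grin2c, Grin2d, Grin3b, Grm2, Grm4 and Gabbr1), and their median GC content was 61.7%. In 21 it was below all other libraries, with a median GC content of 44.0%, and in 7 it was within their range. The GC content of these classes overlapped, at 52.2 to 65% in the subunits above, 35.3 to 54.2% in those below and 39.7 to 56.0% in those within. Over the 37 genes, which share 1 library and its depth, the ratio and the GC content had a Pearson r of 0.844, and over 19294 genes the r was 0.581. Of the dopaminergic markers, the same library had Slc6a3, the dopamine transporter, at 10.8 CPM against 42.3 to 77.4 CPM elsewhere, and Th at 48.0 CPM, within the range of the others. Its summed level of 10 dopaminergic markers was 398 CPM, against 540 to 703 CPM elsewhere, and that of 10 neuron markers 5455 CPM, against 7206 to 8633 CPM. The sum of 5 striatal markers was 558 CPM, of which Ppp1r1b held 518 CPM, against 87.8 to 147 CPM elsewhere, while Drd1 was at 1.30 CPM. The sum of 6 cerebellar granule neuron markers was 286 CPM, against 71.5 to 173 CPM. Not all genes of these neurons were high there. Cbln3, a marker among the 6, was lower than in Cre- Saline replicate 1 and Cre+ Saline replicate 1. Gabra6, the alpha subunit typical of these neurons, lay within the range of the other 12 libraries at 0.174 CPM per kb. The part of other cells or tissue in these levels was not tested.

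**Figure D4:**
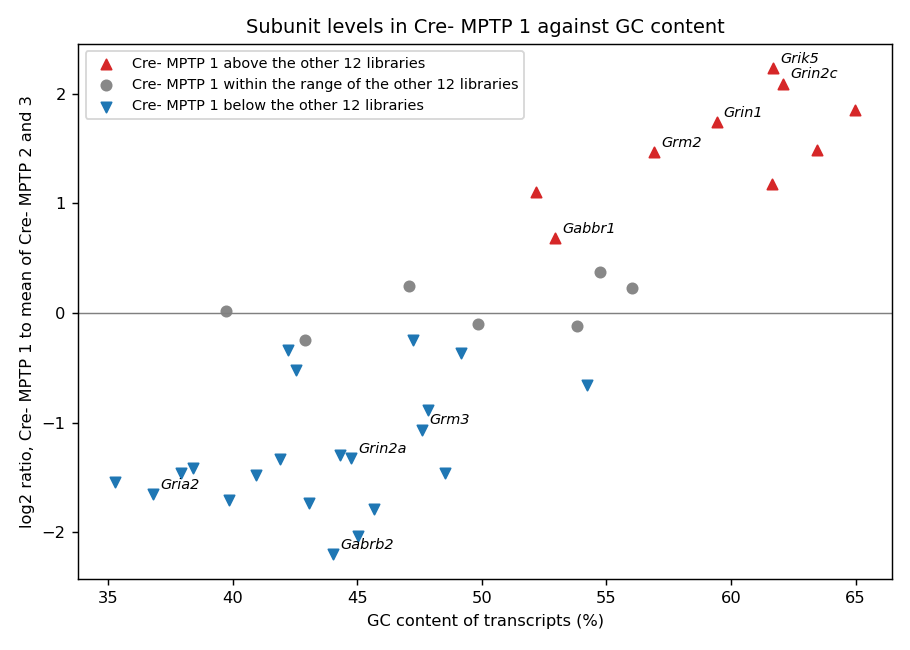
Log2 ratio of each subunit's CPM in Cre- MPTP replicate 1 to the mean of Cre- MPTP replicates 2 and 3, with 0.5 CPM added, against the GC content of its longest annotated transcript in percent, 1 point per gene. The 9 subunits above every other library (triangles up) have a median GC content of 61.7% and the 21 below every other library (triangles down) one of 44.0%.

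The comparison of MPTP with Saline in Cre- mice asked what the toxin alone went with. None of the 37 subunits was called by edgeR's quasi-likelihood test, and 3.18% of all genes were called. An unadjusted p under 0.05 was reached by 3 subunits (Grm3, Grin2c and Grin1), beside 15% of all genes. DESeq2 over all libraries called 1 (Grm3), when 6.17% of all genes were called, and limma voom 2 (Grm3 lower, Gabrb2 higher), when 13.6% were. Grm3 lay lower and Grin1 higher without overlap of the groups, 2 of 37, beside 15.1% of all genes. The log2 fold change was 1.17 (SE 0.441, edgeR quasi-likelihood adjusted p = 0.244) for Grin2c and 0.94 (SE 0.367, edgeR quasi-likelihood adjusted p = 0.261) for Grin1.

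Without Cre- MPTP replicate 1, Grin2c stood at 0.11 (SE 0.117) and Grin1 at 0.11 (SE 0.0971) with MPTP in Cre- mice, and 3 subunits were called, when 9.38% of genes were. These were Grm3 lower, and Gabrb2 and Grin2a higher, the last 2 named after their values were seen. With the GC trend removed and all 13 libraries kept, 2 were called (4.72% of all genes), Grm3 (-0.88, edgeR quasi-likelihood adjusted p = 0.0145) and Grin1 (0.41, edgeR quasi-likelihood adjusted p = 0.0388).

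Gabrb2, the beta subunit of many GABA-A receptors, had 161 and 148 CPM in Cre- MPTP replicates 2 and 3 and 33.2 CPM in replicate 1. In Cre- Saline it had 71.1, 116 and 110 CPM, and Cre- Saline replicate 1, a library high in the forebrain marker Neurod6, was the lowest of these. Its log2 fold change with MPTP in Cre- mice was 0.64 (SE 0.156, edgeR quasi-likelihood adjusted p = 0.0208) without Cre- MPTP replicate 1 and 0.20 (SE 0.409) with it.

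In Cre+ Saline, Gabrb2 had 119, 125 and 144 CPM, and in Cre+ MPTP 151, 148, 137 and 141 CPM, with a log2 fold change of 0.16 (SE 0.383). Grin2a had 56.9, 58.5 and 61.1 CPM in Cre- Saline and 27.9, 74.9 and 66.3 CPM in Cre- MPTP, a log2 fold change of 0.27 (SE 0.0776, edgeR quasi-likelihood adjusted p = 0.0481) without replicate 1 and -0.06 (SE 0.259) with it. In Cre+ mice Grin2a had 69.3, 65.8 and 70.0 CPM under Saline and 77.1, 79.8, 73.2 and 76.0 CPM under MPTP. For both genes the Cre- MPTP mice other than replicate 1 lay above the Cre- Saline mice.

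With MPTP in Cre+ mice, no subunit was called by edgeR's quasi-likelihood test, DESeq2 or limma voom, while these called 0%, 0.441% and 1.52% of all genes. 1 subunit, Gabra6, had an unadjusted p under 0.05, beside 3.47% of all genes. The 36 others lay within 0.25 of zero on the log2 scale, with a median SE over all 37 of 0.268. Without Cre- MPTP replicate 1 the median SE was 0.0981. That library enters this comparison only through the shared estimate of the spread, the scaling and the count filter. Groups did not overlap in 3 subunits, Grm5, Grin2a and Gria2, all higher with MPTP, beside 9.66% of all genes.

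Grm5 had 106, 102 and 108 CPM in Cre+ Saline and 121, 118, 110 and 120 CPM in Cre+ MPTP, a log2 fold change of 0.16 (SE 0.140, edgeR quasi-likelihood adjusted p = 1.00). It had 109, 105 and 89.5 CPM in Cre- Saline and 83.0, 126 and 112 CPM in Cre- MPTP, where the groups overlapped. Grik1, a kainate receptor subunit, had 22.7, 20.7 and 18.7 CPM in Cre+ Saline and 21.3, 19.5, 17.4 and 17.0 CPM in Cre+ MPTP, overlapping, with a log2 fold change of -0.14 (SE 0.199, edgeR quasi-likelihood adjusted p = 1.00). In Cre- mice Grik1 had 18.5, 20.6 and 19.9 CPM under Saline and 10.1, 19.5 and 18.7 CPM under MPTP.

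Between Cre+ and Cre- mice under Saline, which measured the genotype without the toxin, no subunit was called by edgeR's quasi-likelihood test, DESeq2 or limma voom, while these called 0%, 0.0106% and 0.0155% of all genes. 1 subunit, Grin3a, had an unadjusted p under 0.05, beside 0.909% of all genes. Groups did not overlap in 6 subunits, all higher in Cre+ mice (Grin3a, Gabrq, Gabrb2, Grin2a, Grm7 and Gria4), beside 11.6% of all genes and 5.91% of all genes higher in Cre+ mice. Their log2 fold changes ran from 0.08 to 0.38, and 36 of 37 subunits lay within 0.5 of zero.

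Grin3a (chromosome 4, 49661611 to 49845744, minus strand), a glycine-binding NMDA receptor subunit that lowers calcium entry, had 70.3, 69.6 and 70.8 CPM in Cre+ Saline and 52.5, 62.1 and 57.7 CPM in Cre- Saline. Under MPTP it had 72.3, 64.4, 69.2 and 72.1 CPM in Cre+ and 48.0, 60.2 and 64.1 CPM in Cre- mice. The lowest of the 7 Cre+ mice (64.4 CPM) was therefore just above the highest of the 6 Cre- mice (64.1 CPM). Treatments were pooled here after the values were seen, and the share of all genes with such a split was not counted. Within a treatment, the genotypes did not overlap in 11.6% (Saline) and 11.3% (MPTP) of all genes. The log2 fold change was 0.29 (SE 0.130, edgeR quasi-likelihood adjusted p = 1) under Saline and 0.27 (SE 0.122, edgeR quasi-likelihood adjusted p = 0.252) under MPTP, where it was 0.16 (SE 0.0807) without Cre- MPTP replicate 1. The interaction was -0.02 (SE 0.178), and with MPTP the change was 0.00 (SE 0.130) in Cre- and -0.02 (SE 0.121) in Cre+ mice.

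Subunits of the cerebellum and forebrain depended on single Saline libraries. Gabra6 (chromosome 11, 42306437 to 42321072, minus strand), the alpha subunit typical of cerebellar granule neurons, had 6.51 CPM in Cre- Saline replicate 1 and 8.83 CPM in Cre+ Saline replicate 1. In the other 11 libraries it had 1.17 and 0.402 CPM (Cre- Saline), 0.569 and 1.26 CPM (Cre+ Saline), 0.434, 0.911 and 0.0990 CPM (Cre- MPTP) and 0.259, 1.29, 0.266 and 0.458 CPM (Cre+ MPTP). Cbln3, a marker of those neurons, had 16.5 and 23.0 CPM in the same 2 libraries and 1.30 to 5.25 CPM in the others.

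The log2 fold change of Gabra6 with MPTP was -2.69 (SE 1.09, edgeR quasi-likelihood adjusted p = 1.00) in Cre+ and -2.48 (SE 1.24, edgeR quasi-likelihood adjusted p = 0.361) in Cre- mice, where it was -2.45 (SE 1.35) without Cre- MPTP replicate 1. Over the alternatives in Cre+ mice it ran from -3.41 to -0.73 and was called in none. The value of -0.73 came without Cre- Saline replicate 1 and Cre+ Saline replicate 1 together, and without Cre+ Saline replicate 1 alone it was -0.75. In Cre- mice without Cre- Saline replicate 1, the largest log2 fold change of any subunit with MPTP was 1.20 in size. The lowest level of Gabra6, 0.0990 CPM, rested on 3 counts.

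Gabrd, the delta subunit of extrasynaptic GABA-A receptors, had 15.4, 4.37 and 3.32 CPM in Cre- Saline and 4.81, 4.23 and 4.42 CPM in Cre+ Saline. It had 4.88, 4.56 and 2.91 CPM in Cre- MPTP and 3.73, 3.92, 4.21 and 4.92 CPM in Cre+ MPTP. Cre- Saline replicate 1 stood alone, and it also had 19.5 CPM of Neurod6, a transcription factor of cortical and hippocampal neurons, against 1.19 to 3.79 CPM in the other libraries. The log2 fold change of Gabrd between genotypes under Saline was -0.78 (SE 0.455, edgeR quasi-likelihood adjusted p = 1) and turned to 0.22 (SE 0.260) without that library.

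Gabra4, an alpha subunit that often pairs with delta, had 33.3, 19.8 and 16.4 CPM in Cre- Saline and 22.0, 17.9 and 19.3 CPM in Cre+ Saline. It had 16.1, 21 and 20.0 CPM in Cre- MPTP and 20.4, 21.8, 21.9 and 21.9 CPM in Cre+ MPTP. Cre- Saline replicate 1 was again the highest, and the log2 fold change between genotypes under Saline turned from -0.23 (SE 0.224) to 0.13 (SE 0.166) without it. The exons of Gabra4 and its neighbour Gabrb1 overlap on opposite strands, and no source used here gives the strand setting of the counting. Reads in the overlap may therefore be missing or counted for the other gene. Grin3b (42 to 91 counts) overlaps Tmem259 (up to 5180 counts) in the same way, and Grin1 overlaps Grin1os (up to 854 counts). Other subunits have such overlaps as well, and their part in the levels was not tested. The part of cerebellar and forebrain tissue in the values of Gabra6, Gabrd and Gabra4 was not tested.

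**Figure D5:**
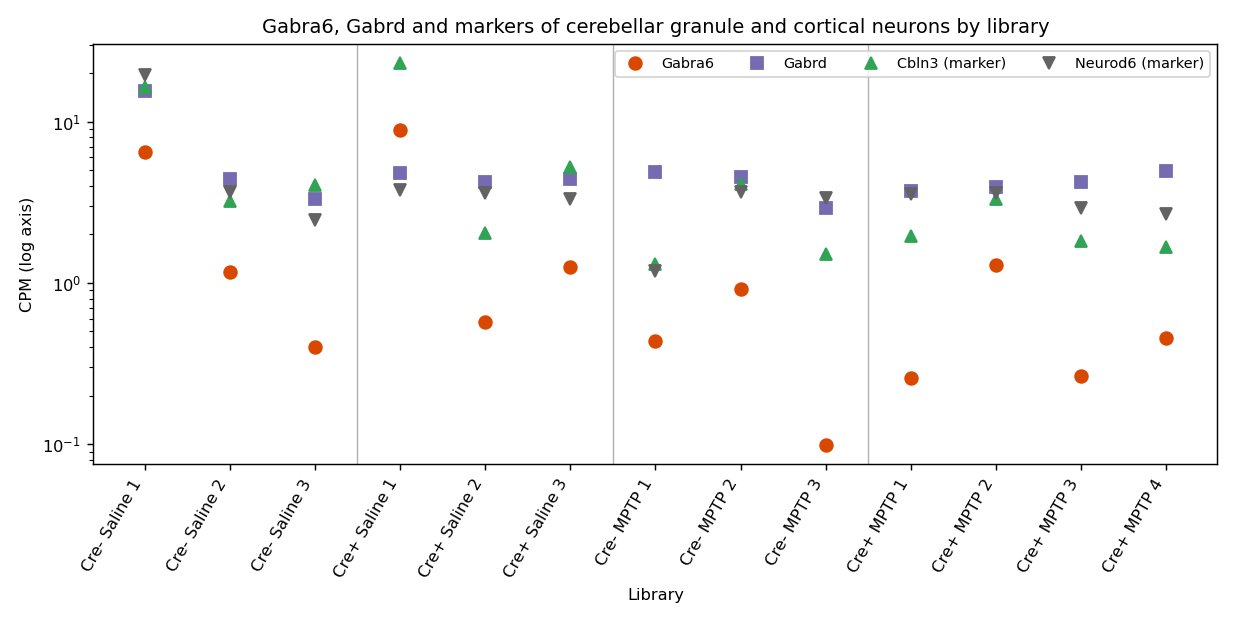
CPM (log axis) of Gabra6 and Gabrd, of Cbln3, a marker of cerebellar granule neurons, and of Neurod6, a marker of cortical and hippocampal neurons, in each of the 13 libraries. Gabra6 and Cbln3 are high in Cre- Saline replicate 1 and Cre+ Saline replicate 1, and Gabrd and Neurod6 in Cre- Saline replicate 1.

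The other genes of glutamate and GABA transmission were read from lists of transmitter release, uptake and breakdown, receptor auxiliary subunits, postsynaptic scaffolds, and glycine receptor subunits, 63 genes in all. By edgeR's quasi-likelihood test none was called with MPTP in Cre+ mice, between genotypes under either treatment or in the interaction. With MPTP in Cre- mice 1 of 63 was called, beside 3.18% of all genes. This was Cacng4, an auxiliary subunit that traffics AMPA receptors. Cacng4 had 35.7, 32 and 33.4 CPM in Cre- MPTP and 46.3, 47.3 and 55.4 CPM in Cre- Saline, without overlap, a log2 fold change of -0.56 (SE 0.132, edgeR quasi-likelihood adjusted p = 0.0382).

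In Cre+ mice Cacng4 had 44.0, 50.3 and 47.0 CPM under Saline and 44.6, 35.1, 41.3 and 39.0 CPM under MPTP, with a log2 fold change of -0.23 (SE 0.123) that was not called and an interaction of 0.33 (SE 0.181, edgeR quasi-likelihood adjusted p = 0.795), which was 0.37 (SE 0.146) without Cre- MPTP replicate 1. In the fit without that library, 6 of 63 were called with MPTP in Cre- mice, beside 9.38% of all genes. Cacng4 (-0.60), Cacng8 (-0.47) and Cnih2 (-0.90), which are AMPA receptor auxiliary subunits, and the scaffold Homer3 (-0.81) were lower, and Slc1a2 (0.46), the main glutamate transporter of astrocytes, and the glycine receptor subunit Glra3 (0.39) were higher. The median over the 63 genes was -0.01 with all libraries and 0.00 without that library.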

How the data were processed

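Total RNA of the midbrain was prepared with a stranded total RNA kit and sequenced from 13 mice, 1 library each. The authors used Trimmomatic 0.36 to trim reads, STAR 2.5.2b to align them to GRCm38, and featureCounts (Subread 1.5.2) to obtain uniquely assigned counts, which they analysed with DESeq2. They deposited raw integer counts of 49315 genes for every library, and the strand setting of the counting is not given in the sources used here. Symbols were taken from the mouse GRCm38 annotation, and groups from the genotype and treatment labels.

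A gene was tested if 3 or more libraries had 10 or more counts (19360 genes). A model with the 4 groups was fitted to the 13 libraries by edgeR's quasi-likelihood method (version 4.0.16, R 4.3.3) after TMM scaling, and p-values were adjusted over all genes tested by the Benjamini-Hochberg method, with calls at an adjusted p under 0.05. Treatments were contrasted within Cre- and within Cre+ mice, genotypes within Saline and within MPTP, and the interaction was tested. They share groups, so they are not independent of each other. Standard errors were derived from the log2 fold change and its F statistic. CPM use TMM factors, and CPM per kb divides them by the deposited gene length. Totals of 11489150 to 29397278 counts per library limit the precision for genes with few counts, such as Gabra6, whose lowest count was 3. The fits were tested on simulated data.

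The 37 genes, the related lists and the marker lists were chosen with earlier results of these data known. Values in every library are given for subunits called in any contrast, for the 3 with the smallest p in each contrast and for the highest per kb of each family. The alternatives were DESeq2 1.42.0, limma voom (limma 3.58.1) with quality weights, edgeR on the 2 groups, DESeq2 size factors, other count filters, a replicate block, each library left out in turn, and Cre- MPTP replicate 1 left out with Cre+ MPTP replicate 4. Removal of a trend on GC content, alone or with length, used the longest annotated transcript of each gene. This removal, and leaving out Cre- Saline replicate 1 with Cre+ Saline replicate 1, were added after seeing the data. Other genes of these receptor families were not analysed here.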

Additional observations from a re-analysis of the deposited data

Results flagged for a closer look

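Among the 37 subunits, 2 had 1 of the 4 Cre+ MPTP libraries far from the other 3 by Dixon's criterion at the 95% level, a test that chance alone passes in about 1 of 20 groups. Grid1 had 49.1 CPM in Cre+ MPTP replicate 4 and 61.1 to 63.3 CPM in the other 3 libraries. The same replicate held 5486 CPM in summed muscle markers, against 7.59 to 123 CPM in every other library, and their part in the Grid1 value was not tested. Gabra4 had 20.4 CPM in Cre+ MPTP replicate 1 and 21.8 to 21.9 CPM in the other 3. Groups of 3 mice were not tested in this way. No subunit had an interaction of genotype and MPTP past an adjusted p of 0.05 by edgeR's quasi-likelihood test.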

How the results depend on the processing

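Counts of called subunits were small, so that 1 gene near the threshold changed them. With MPTP in Cre- mice, 0 became 1 with DESeq2 over all libraries, 2 with limma voom, 2 when Cre- MPTP replicate 1 was left out along with Cre+ MPTP replicate 4, 2 with the GC trend removed and 2 with GC and length trends removed, and leaving out single libraries gave 0 to 3. Between Cre+ and Cre- mice under MPTP, 1 became 0 with edgeR on the 2 groups and without Cre- Saline replicate 1 and Cre+ Saline replicate 1 together, and single libraries left out gave 0 to 5. In the interaction, 0 became 1 with limma voom. In the other 2 contrasts 0 were called in every alternative. The cause of these changes was not tested.

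The median log2 fold change of the subunits between Cre+ and Cre- mice under MPTP moved from 0.19 by more than the spread between libraries (0.110) with limma voom (0.0431), with both Cre- MPTP replicate 1 and Cre+ MPTP replicate 4 left out (0.0477), and with GC and length trends removed (0.0719), and single libraries left out gave 0.00623 to 0.28. With MPTP in Cre- mice the range over libraries left out was -0.21 to 0.0267, and in the interaction -0.0545 to 0.25. Gabrd and Gabra4 reversed between genotypes under Saline, from -0.78 and -0.23 to 0.17 and 0.0427 without Cre- Saline replicate 1 and Cre+ Saline replicate 1 together, while single libraries left out gave -1.14 to 0.22 and -0.42 to 0.13, with the positive values without Cre- Saline replicate 1. Of 369 alternative values for named subunits, 340 kept their direction and their side of the threshold. Most of them belonged to contrasts not called with all 13 libraries, which kept their side by staying uncalled. Grm3 between Cre+ and Cre- mice under MPTP, the only call, stayed called in 12 of 25 alternatives.

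With the replicate number as a block, 0 subunits were called between Cre+ and Cre- mice under MPTP in place of 1 (Grm3 1.17, edgeR quasi-likelihood adjusted p = 0.122), and the block changed no other call. Same-numbered mice are distinct animals, and the correlation of their deviations ran from -0.125 to 0.184, over 0.1 in 3 of 12 pairs, so the numbers were not taken as pairing. Cre+ MPTP replicate 4, the only mouse of that number, is fitted exactly in the block.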
